A study of Mus musculus with 4 samples.

Results

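Distal regions of open chromatin that were called as ATAC-seq peaks in every library were described in the posterior forelimb bud of mouse embryos at E10.5 (35 somites). ATAC-seq uses the Tn5 transposase to cut open chromatin and to insert sequencing adapters there. The 4 libraries came from 2 wild-type (WT) embryos and 2 Shh-/- embryos, which carry the null allele Shh tm1amc and lack the SHH ligand in every cell. All 4 were on a Swiss Webster background and received no treatment, and each library was made from the posterior forelimb fractions of a single embryo, 5000 cells per reaction, with 18 cycles of PCR. Each library was deposited as a peak list with its own scores, called on its own. The 4 lists were merged into 44692 regions, of which 27184 were distal, touching no promoter window of any transcription start site (TSS), a window that reached 2 kb before the start and 1 kb past it. A peak from every library was present in 469 of the distal regions (1.73%), and these are the members described here. They were chosen by their calls, so the number of libraries in which they were called is not a result. The distal regions called in 3, 2 and 1 libraries (1321, 2838 and 22556 regions) and the 3093 promoter regions called in all 4 libraries are given for comparison. Regions are not replicates, and neighbouring regions are not independent, so shares over regions carry 95% Wilson intervals, which cover counting error only, and no p-values.

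Distal open regions include enhancers, at which transcription factors bind and keep the DNA free of nucleosomes, insulators bound by CTCF, and promoters of transcripts that an annotation does not hold. In the limb bud, enhancers in introns and in gene deserts control the genes that pattern the digits, and SHH from the posterior margin acts on many of them through the GLI transcription factors. Repeated DNA is a known source of high scores in ATAC-seq. Ribosomal RNA genes and satellite DNA are present in far more copies in the genome than in its assembly, and nuclear copies of mitochondrial DNA can collect reads from mitochondria.

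The best ranked members were mostly sequences with near-identical copies, and 4 sets of them, all from the 20 best members, are shown first. All sequences are from the GRCm38 genome (mm10), 5′ to 3′, on the strand given. In the first 3 sets, capitals mark letters that differ from the first sequence of the set. The first set pairs an intergenic member with a member in an intron of Camk1d. They differed at 8 of 120 positions.
chr3:5860320-5860439 (+): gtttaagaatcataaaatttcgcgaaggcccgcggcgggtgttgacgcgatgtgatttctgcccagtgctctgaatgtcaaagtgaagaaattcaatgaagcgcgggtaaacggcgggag
chr2:5379231-5379350 (-): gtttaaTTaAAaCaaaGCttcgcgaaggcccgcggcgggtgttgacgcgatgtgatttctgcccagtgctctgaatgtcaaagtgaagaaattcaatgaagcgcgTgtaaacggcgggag
The second set holds a member in an intron of Cmss1, a member in an intron of Jarid2 and an intergenic member of chromosome 8. The Jarid2 stretch differed from the Cmss1 stretch at 2 of 120 positions and the stretch of chromosome 8 at 0.
chr16:57391161-57391280 (+): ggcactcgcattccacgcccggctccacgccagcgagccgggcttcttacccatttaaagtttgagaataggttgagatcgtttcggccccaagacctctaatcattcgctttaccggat
chr13:44869685-44869804 (+): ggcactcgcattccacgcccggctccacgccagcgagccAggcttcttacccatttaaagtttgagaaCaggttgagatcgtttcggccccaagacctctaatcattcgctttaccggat
chr8:15519955-15520074 (-): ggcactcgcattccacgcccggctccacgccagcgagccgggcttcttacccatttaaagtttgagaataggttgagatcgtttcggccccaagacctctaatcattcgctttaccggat
The letters of these first 2 sets read like parts of the 28S ribosomal RNA. The annotation used here held no whole 28S gene, so this likeness was not measured. The third set pairs a member in an intron of Chl1 with an intergenic member of chromosome 2, which are rich in A and T. They differed at 5 of 120 positions.
chr6:103649112-103649231 (+): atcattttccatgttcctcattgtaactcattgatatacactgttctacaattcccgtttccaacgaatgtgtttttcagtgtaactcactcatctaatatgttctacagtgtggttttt
chr2:98665009-98665128 (-): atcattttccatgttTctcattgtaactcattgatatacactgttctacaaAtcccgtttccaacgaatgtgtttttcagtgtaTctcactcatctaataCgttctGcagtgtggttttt
The fourth set gives an intergenic member of chromosome 6 and, below it, the stretch of the annotated ribosomal RNA gene CT010467.1 on chromosome 17 to which it aligned. A single letter differed in these 120 positions, in capitals, and over its whole aligned length of 802 bp the member was 98.4% identical to the gene.
chr6:3200770-3200889 (+): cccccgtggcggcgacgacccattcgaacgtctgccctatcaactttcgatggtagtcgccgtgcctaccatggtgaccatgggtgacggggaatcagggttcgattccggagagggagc
chr17:39846681-39846800 (+): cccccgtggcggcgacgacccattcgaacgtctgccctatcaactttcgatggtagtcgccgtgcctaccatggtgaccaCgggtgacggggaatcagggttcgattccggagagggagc

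To ask which members ranked best, the score of each member was turned into a rank percentile within each library, among the 3562 regions called in all 4 libraries (100 is best), and the 4 percentiles were averaged. The 14 best members were all among the 39 best peaks of every list. First was chr9:123461786-123462198, which overlaps the untranslated part of an exon of Lars2, the mitochondrial leucyl-tRNA synthetase. Its scores were 61625 and 28992 in the WT replicates 1 and 2, and 10340 and 21637 in the Shh-/- replicates 1 and 2, which placed it between rank 3 and rank 5 of each list. The second was chr3:5860320-5860829, intergenic, with scores of 59049 and 28964 in WT and 6975 and 24086 in Shh-/-. The third was chr16:57391120-57391696, in an intron of Cmss1, with scores of 54633 and 31839 in WT and 3864 and 20933 in Shh-/-. No separation by genotype is seen in these ranks, since all libraries place them among their 10 best peaks. The pair rich in A and T followed, with ranks 9, 7, 4 and 8 for the Chl1 intron (chr6:103649049-103649292) and 11, 8, 6 and 7 for chr2:98664949-98665222, in the order WT replicates 1 and 2, then Shh-/- replicates 1 and 2.

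Of the 20 best members, 16 aligned to a further place in the genome or to another member, compared with 23 of the other 449. A further place here is an alignment of the 200 bp around the summit at 90% identity or more over at least 160 bp, and members were taken as alike at 90% identity over at least 150 bp. In all, 35 members (7.46%, 5.41 to 10.2%) had a further copy by the first measure, against 3.10% (2.30 to 4.18%) of the distal regions called in 3 libraries and 2.09% (1.91 to 2.29%) of those called in a single library. The second measure joined 22 members into 9 groups, the largest with 4 members. The best ranked member, at Lars2, was alike to members in introns of Gphn (97.5% over 244 bp) and Cntnap5b (91.9% over 198 bp), and a member in an intron of the noncoding Gm26561 was alike to the latter (90.9% over 186 bp). The count of copies depends on the assembly, and only 6 members (1.28%, 0.588 to 2.76%) had 10 or more further copies, led by the satellite-like chr9:3006735-3007241 in an exon of Gm11168 (375 copies) and chr9:35305217-35305591 in an intron of Gm33838 (344 copies), which were 91.3% identical to each other over 358 bp. The other 4 lay in an intron of Tmem267, in an intron of C230088H06Rik and in intergenic sequence of chromosomes 8 and 18. The median share of the window marked by repeat masking was 6.25% in the best 20 and 0% in the others. The 20 best were also narrow, with a median width of 400 bp against 994 bp.

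No member aligned to mitochondrial DNA (0 of 469, which allows a share of up to 0.812%, the upper Wilson limit). A nuclear copy of mitochondrial sequence was called in all 4 lists, but it is no member because it lies in the promoter window of Gm10222. This region, chr1:24612436-24613191, was 99.7% identical to mitochondrial DNA over 756 bp and ranked 16 and 17 in the WT lists and 12 and 39 in the Shh-/- lists.

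**Figure D1:**
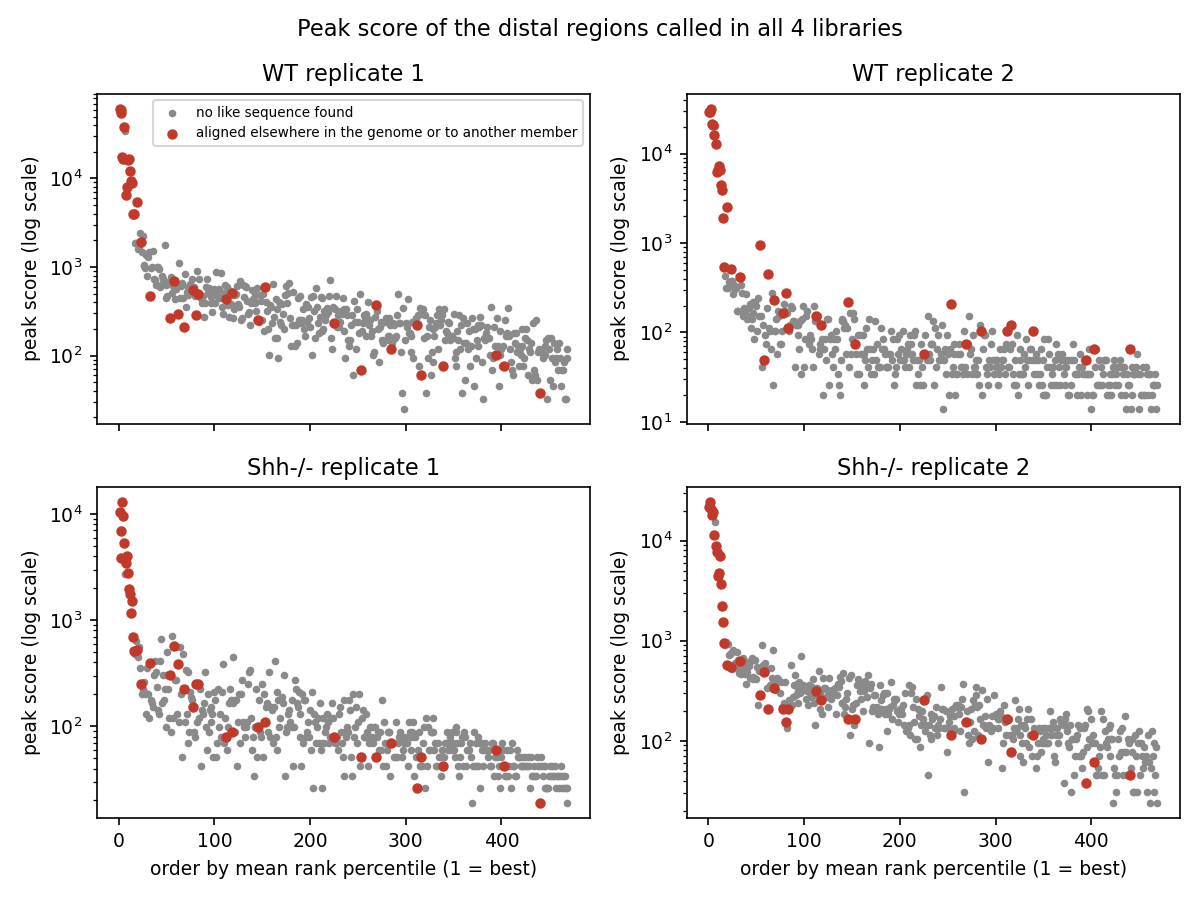
Peak score (log axis) of the 469 members in each library, ordered from left to right by mean rank percentile; each point is a region, and red points aligned elsewhere in the genome or to another member. In every panel the red points hold most of the steep left end, and the scores then level off.

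The best members for which neither measure found a copy are given next. A member 88.7 kb from the start of Axin2, a feedback inhibitor of WNT signaling, was seventh (chr11:109011547-109012123), with ranks 7, 9, 15 and 9. Its scores of 34500, 20098, 2716 and 15451 stood far above those of the next single-copy member, chr15:73067239-73068073, 6.45 kb upstream of Trappc9 (1856, 433, 482 and 907). Then came chr12:85454958-85455979, 18.4 kb upstream of Fos, which encodes a subunit of the AP-1 transcription factor (scores 1873 and 316 in WT, 632 and 968 in Shh-/-), and chr7:45643152-45645324, over an exon of Mamstr, a cofactor of MEF2 (1604 and 316 in WT, 453 and 938 in Shh-/-). Members near Zfp869, Shf, Igf2bp3, Wnt7b, Nfe2l3, Ezh2, Phf19, Laptm4a and Tcf4 were also among the 38 best.

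Annotation differed with the number of libraries. Members were intergenic in 249 cases (53.1%, 48.6 to 57.6%), intronic in 160 (34.1%, 30.0 to 38.5%) and exonic in 60 (12.8%, 10.1 to 16.1%). Among distal regions called in a single library, introns were the largest class, with 46.5% (45.8 to 47.1%) against 31.4% intergenic (30.8 to 32.0%), and the regions called in 2 and 3 libraries lay between, with 41.3% and 38.1% in introns. This order did not hold at matched scores. In bins of the score in WT replicate 1, members were intronic in 41.1% against 44.7% of other distal regions at scores of 25 to 128, in 46.4% against 38.6% at 129 to 219, in 38.3% against 32.9% at 220 to 317 and in 20.2% against 35.4% at 318 to 511. The highest bin held only 16 other regions, of which 12.5% were intronic, against 24.5% of members. Of the 160 intronic members 139 were in a protein-coding gene and 68 (42.5%) were in the first intron of their host, coding or noncoding, and in 103 the host was also the gene with the nearest start. Of the 60 exonic members 44 overlapped coding sequence and 10 untranslated sequence only, and 6 were in exons of transcripts without coding sequence. The median distance to the nearest start of a protein-coding gene was 25.5 kb (20.4 to 31.8 kb) in members, 37.6 kb (33.2 to 41.8 kb) in regions called in 3 libraries and 19.9 kb (19.5 to 20.4 kb) in regions called in a single library. Of the members, 58 (12.4%) were within 5 kb of a start and 85 (18.1%) over 100 kb away. The member nearest to a start lay 1.67 kb inside Slc16a3, a lactate transporter, and the farthest lay 798 kb into Fhit. The members closest to the limit of the promoter window were 9 bp outside it at Slc16a3 and 14 bp at Ndfip1, and the promoter regions that came closest to being members overlapped it by 8 bp at Maml3 and 24 bp at Psd2.

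Some members lie at starts that the basic set of GENCODE does not hold. The window of a RefSeq start covered 96 members (20.5%, 17.1 to 24.4%), compared with 13.4% (11.7 to 15.3%) of the regions called in 3 libraries and 7.47% (7.13 to 7.82%) of those called in a single library. The full GENCODE set covered 55 (11.7%, 9.12 to 15.0%), near its share of 10.7% in regions called in 3 libraries and 12.5% in those called in a single library. Either set covered 123 (26.2%), compared with 19.2% and 17.9% in the same order. GC content followed the same division. The median GC of the 200 bp around the summit was 54% (53 to 55%) in members and 53% in distal regions called in a single library, against 62.5% in promoter regions called in all 4. Within the members it was 58% (55.5 to 58.5%) for the 123 at a start of these wider sets and 52.5% (51.5 to 54.0%) for the other 346. The ratio of observed to expected CpG was 0.43 in members, 0.21 in distal regions called in a single library and 0.82 at promoters. Windows of at least 50% GC with a ratio of at least 0.6, the usual limits of a CpG island, made up 24.7% (21.0 to 28.8%) of members, 42.3% (33.9 to 51.1%) of those at a wider start and 18.5% (14.8 to 22.9%) of those away from any start, compared with 4.12% (3.87 to 4.39%) of distal regions called in a single library.

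**Figure D2:**
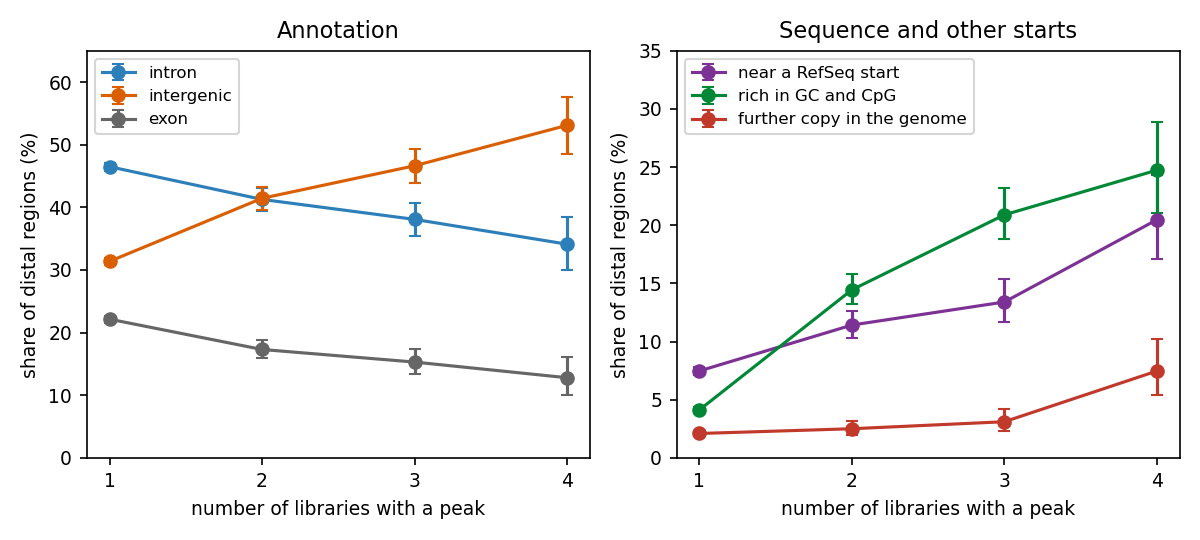
Share of distal regions (y axis, %) in introns, intergenic sequence and exons (left) and with a RefSeq start nearby, a window rich in GC and CpG, or a further genomic copy (right), by the number of libraries with a peak (x axis); bars are 95% Wilson intervals. The intronic share falls from 46.5% to 34.1% and the share near a RefSeq start rises from 7.47% to 20.5%.

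To ask what sequence the members share, matches to 18 motifs were counted in the 200 bp around the best summit, on both strands. The best summit of a member came from Shh-/- replicate 1, the shortest list, in 309 cases. It came from WT replicates 1 and 2 in 62 and 59 and from Shh-/- replicate 2 in 39. A region called in a single library has only the summit of that library. Comparisons of GC and motifs between classes thus set windows placed by different libraries side by side. At least 1 motif matched in 274 members. The sequence TAATTA, the core bound by homeodomain proteins such as the MSX, LHX and PRRX factors of limb mesenchyme, was present in 47 members (10.02%, 7.62 to 13.1%). It was found in 4.56% (4.29 to 4.84%) of distal regions called in a single library and 10.1% (9.09 to 11.3%) of those called in 2. The share was 14.4% (12.6 to 16.4%) in those called in 3 and 1.10% (0.788 to 1.53%) in promoter regions called in all 4. The difference from regions called in a single library was 5.46 percentage points (interval 3.05 to 8.53). From those called in 2 it was -0.127 (-2.80 to 3.10) and from those called in 3 it was -4.36 (-7.48 to -0.825). Members also score higher than other distal regions, so the comparison was repeated within 5 bins of the score in WT replicate 1. The mean difference over the bins was 0.187 percentage points. In this mean each bin was weighted by its numbers of members and of other regions (Mantel-Haenszel weights), so it is not the plain mean. The other distal regions in the same score range were 17718, of which 16771 were in the lowest bin. The bins went opposite ways, with 10.6% of members against 16.5% of the others at scores of 220 to 317, and 17.0% against 6.15% at scores of 318 to 511. The best ranked single-copy member with this core lay 254 kb upstream of Nfe2l3, and the best ranked near a gene of the SHH pathway lay 48.2 kb upstream of Pkdcc, a secreted kinase needed for limb growth. Their windows are shown with the core in capitals.
chr6:51178274-51178473 (+): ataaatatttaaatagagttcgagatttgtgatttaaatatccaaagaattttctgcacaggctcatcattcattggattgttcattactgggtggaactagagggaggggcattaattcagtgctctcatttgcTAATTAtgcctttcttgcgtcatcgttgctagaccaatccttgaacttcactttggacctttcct
chr17:83167093-83167292 (+): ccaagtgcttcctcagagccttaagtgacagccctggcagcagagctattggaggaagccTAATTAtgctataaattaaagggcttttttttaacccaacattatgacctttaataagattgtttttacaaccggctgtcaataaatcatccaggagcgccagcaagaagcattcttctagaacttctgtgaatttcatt

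The box CCAATCA, bound by the promoter factor NF-Y, matched in 32 members (6.82%, 4.87 to 9.47%), compared with 2.00% (1.82 to 2.19%) of distal regions called in a single library and 15.5% (14.3 to 16.8%) of promoter regions. It was present in 10.6% (6.28 to 17.2%) of the members at a wider start and in 5.49% (3.54 to 8.42%) of those away from any start, and the interval of this difference included 0 (-12.0 to 0.113 percentage points). The weighted mean difference over the score bins was 1.20 percentage points. Its direction differed between bins, with 4.26% of members against 5.70% of the others at scores of 220 to 317. The best ranked single-copy member away from any start with this box lay 21.1 kb from the start of Syt3 and held it at 2 places, in capitals.
chr7:44405751-44405950 (+): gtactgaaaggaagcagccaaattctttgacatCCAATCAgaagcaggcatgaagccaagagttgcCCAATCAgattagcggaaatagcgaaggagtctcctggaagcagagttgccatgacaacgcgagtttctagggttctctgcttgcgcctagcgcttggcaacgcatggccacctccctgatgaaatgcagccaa

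CAGATG, an E-box of TWIST and other basic helix-loop-helix factors, was less common in members (67, 14.3%, 11.4 to 17.7%) than in distal regions called in a single library (20.4%, 19.9 to 20.9%), a difference of -6.09 percentage points (-9.02 to -2.60). From regions called in 2 libraries (20.5%) it differed by -6.22 (-9.48 to -2.47). Against those called in 3 (17.9%) the difference was -3.58, with an interval that included 0 (-7.18 to 0.401). Weighted over the score bins in the same way, the difference from other distal regions was -5.36 percentage points. It matched in 18.6% of members and 25% of other distal regions that scored 129 to 219, and in 20.2% and 16.5% of those that scored 220 to 317, so the direction was not the same in every bin.

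The GLI consensus TGGGTGGTC, with at most 1 mismatch, matched in 28 members (5.97%, 4.16 to 8.49%). The share was 6.05% (5.75 to 6.37%) in distal regions called in a single library and 4.56% (3.88 to 5.35%) at promoters, and the difference from the former was -0.0815 percentage points (-1.92 to 2.46). Against the regions called in 3 libraries, which held it in 3.79%, the difference was 2.19 percentage points (0.0317 to 4.86). The weighted mean difference over the score bins was 1.12 percentage points, although members were above the others in only 2 of 5 bins. Without a mismatch 2 members matched, in introns of Dlg4 and Dapk1. Of the 28 members, 2 had a gene of the SHH list as their nearest gene, Pkdcc and Ccnd1, the cyclin D1 gene. The exact match in Dapk1 and the match 36.1 kb upstream of Pkdcc are shown in capitals.
chr13:60738144-60738343 (+): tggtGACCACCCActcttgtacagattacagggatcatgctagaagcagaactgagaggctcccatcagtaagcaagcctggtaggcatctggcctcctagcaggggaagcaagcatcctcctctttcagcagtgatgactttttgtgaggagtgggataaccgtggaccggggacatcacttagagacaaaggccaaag
chr17:83179144-83179343 (+): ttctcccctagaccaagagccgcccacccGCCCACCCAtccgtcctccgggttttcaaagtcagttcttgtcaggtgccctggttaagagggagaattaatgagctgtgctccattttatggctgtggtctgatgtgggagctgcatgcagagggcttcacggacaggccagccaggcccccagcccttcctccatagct

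A CTCF match was found in 8 members (1.71%, 0.867 to 3.33%), compared with 0.958% (0.839 to 1.09%) in distal regions called in a single library and 0.485% at promoters. The difference of 0.748 percentage points had an interval that included 0 (-0.102 to 2.38). Within 500 bp of the summit a match was found in 24 members (5.12%) and in 624 regions called in a single library (2.77%). No interval was made for that wider comparison. Of the 8 members, 4 were intronic, in Agrp, Osgin1, Rgma and Phc2. That in Agrp had its nearest start in Ctcf itself, 13.6 kb away. The best ranked of the 8, 95.8 kb upstream of Rab39b on chromosome X, is shown with the match in capitals.
chrX:75674213-75674412 (+): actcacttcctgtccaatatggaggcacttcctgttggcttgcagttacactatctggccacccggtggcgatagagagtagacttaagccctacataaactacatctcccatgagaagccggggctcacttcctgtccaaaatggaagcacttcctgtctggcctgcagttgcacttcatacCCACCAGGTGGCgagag

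TEAD, MEIS and PITX elements matched in 13.0%, 16.4% and 5.76% of members and in 11.9%, 18.1% and 4.72% of distal regions called in a single library. The GATA element matched in 3 members (0.640%) against 1.96%, a difference of -1.32 percentage points (-1.78 to -0.0838). Against regions called in 3 and in 2 libraries the intervals of the GATA difference included 0 (-1.43 to 0.737 and -1.31 to 0.611). Its weighted mean difference over the score bins was -0.554 percentage points. YY1 matched in 0 members and ETS in 2, while promoter regions held them in 1.97% and 4.88%.

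**Figure D3:**
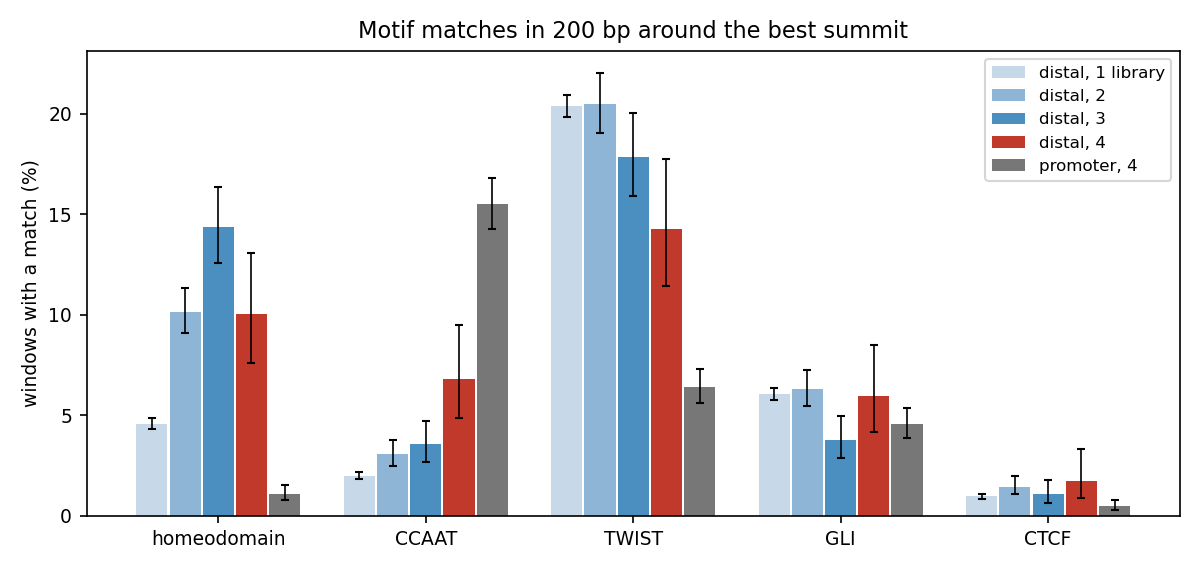
Share of 200 bp windows with a match (y axis, %) for 5 motifs (x axis) in distal regions called in 1, 2, 3 and 4 libraries and in promoter regions called in all 4; bars are 95% Wilson intervals. Members (red) lie between the other distal regions and the promoter regions for CCAAT and TWIST, and homeodomain matches peak in distal regions called in 3 libraries.

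The members had 417 different nearest genes, and 376 of these had a single member. Gse1 had the most, with 4 members of 65 distal regions. A group of 9 genes had 3 each, namely 1600014C10Rik, Haao, Klrb1c, Mrgpra3, Nfe2l3, Pkdcc, Ptma, Rpusd4 and Trim27. At 1600014C10Rik these were all 3 distal regions of the gene, while at Pkdcc they were 3 of 15. Another member was within 10 kb of 45 members (9.59%) and within 100 kb of 126 (26.9%).

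Genes of the developing limb were looked up in lists by function. Among the distal regions nearest to genes of limb mesenchyme transcription factors, 5 of 310 were members (1.61%, against 1.73% of all distal regions). They lay near Ebf3, Meis2, Msx1, Osr1 and Tcf4, and Tcf4 ranked best of these (order 38, in the first intron, 1.82 kb from the start, scores 710, 175, 410 and 463). Osr1 and Msx1 were near the lower end, with scores of 45, 14, 42 and 54 at Osr1 and 53, 41, 34 and 134 at Msx1. For genes of SHH response and pathway, 5 of 217 distal regions were members (2.30%), 3 at Pkdcc and 1 each at Gas1, a SHH co-receptor, and Ccnd1. Gas1 and Ccnd1 were 2 of the 3 lowest ranked members of all. The member of Gas1 scored 93 and 14 in WT and 26 and 87 in Shh-/-. No member had Gli1, Ptch1 or Hhip as nearest gene. Growth factor signaling of limb outgrowth had 6 of 174 (3.45%), near Axin2, Etv4, Fgfr1, Spry4 and Tcf7l2, of which Etv4 and Spry4 are targets of FGF signaling and Tcf7l2 is a WNT effector with 2 members. The member near Axin2 is order 7, whose scores lay among those of members with copies. Chondrogenic and matrix genes had 2 of 176 (1.14%), at Col1a1 and Fn1.

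The lists of other tissues had few distal regions. Limb ectoderm and ridge markers had 3 members of 67 distal regions (4.48%), at En1, Krt8 and Tfap2c. Endothelial and blood markers had 0 of 66. Neural crest and nerve markers had 2 of 33, both at Ngfr. The lists were not tested against the background of 1.73%, and the nearest gene need not be the gene that a region acts on.

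The libraries did not contribute equally to the choice of members. Lists held 39080 and 11973 peaks in WT and 5589 and 18459 in Shh-/-, and members made up 2.08%, 14.9%, 24.2% and 7.26% of the distal regions of the 4 libraries in the same order. The lowest scores of a member were 25 and 14 in WT and 19 and 24 in Shh-/-, so in 2 of the libraries the weakest members stood at the lower end of the list. Of the 1321 distal regions called in 3 libraries, 728 had no peak from WT replicate 2 and 555 had none from Shh-/- replicate 1, while Shh-/- replicate 2 was the missing library at 35 and WT replicate 1 at 3. Without WT replicate 2 the rule would give 1200 regions, and without Shh-/- replicate 1 it would give 1025. These near-members differed in sequence. Those missing from WT replicate 2 had a median GC of 46.5%, lay 68.8 kb from a start and held TAATTA in 21.8% of windows (18.99 to 24.99%). Those missing from Shh-/- replicate 1 had a median GC of 60.5%, lay 16.4 kb from a start and held it in 5.41% (3.81 to 7.61%). GLI matches went the other way, with 1.92% (1.15 to 3.20%) against 6.31% (4.57 to 8.64%). The shares of both motifs in members lay between these values.

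**Figure D4:**
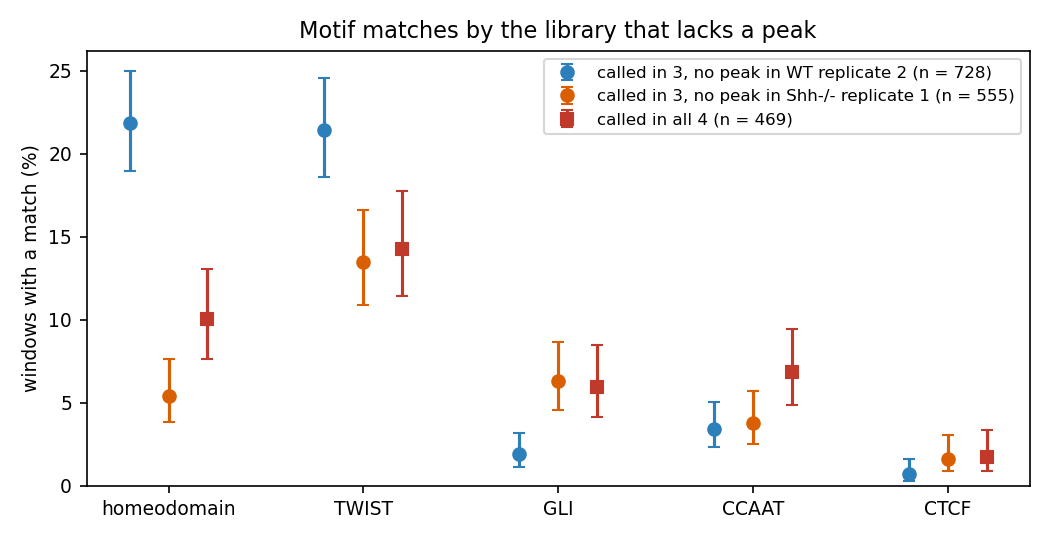
Share of 200 bp windows with a match (y axis, %) for 5 motifs (x axis) in distal regions called in 3 libraries, divided by the library without a peak, and in the 469 members; bars are 95% Wilson intervals. Regions without a peak in WT replicate 2 hold the homeodomain core in 21.8%, those without a peak in Shh-/- replicate 1 in 5.41%, and members in 10.02%.

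Members hold merged peaks from every library by the rule of choice, so summits that lie near each other are partly set by that rule. The median distance between the summits of a member in a pair of libraries ranged from 62 to 82 bp over the 6 pairs, compared with 48 to 68 bp for promoter regions. The shortest distance was between WT replicate 1 and Shh-/- replicate 2, which differ in genotype, and the WT pair (71 bp) and the Shh-/- pair (65 bp) fell within the range of the other pairs. Over the 6 pairs 80.4 to 86.6% of members had their summits within 200 bp, compared with 84.0 to 94.0% of promoter regions, and 33.0 to 43.7% of members within 50 bp. In 325 members the summits of all 4 libraries lay within 200 bp of the best summit.

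Finally, the rank of the members was compared between the genotypes, since the study asked how loss of SHH changes accessibility. Members ranked below promoters in each library. Their median percentile was 17.7 and 19.9 in the WT replicates 1 and 2, and 40.5 and 22.4 in the Shh-/- replicates 1 and 2. Both Shh-/- values are above both WT values, but Shh-/- replicate 1 stands far from the other 3, which lie close together. The means were 18.8 ± 1.57 in WT and 31.4 ± 12.8 in Shh-/- (SD, n = 2 each). The difference of -12.7 had p = 0.33 in a two-sided exact permutation test, the smallest value that 2 against 2 libraries can give. Without Shh-/- replicate 1 it was -3.61. Ranked among all peaks of each list in place of the shared regions, the difference changed sign, to 7.23. At or below the median GC of 54% the median percentile was 15.2, 15.1, 51.7 and 19.1 (n = 236), and above it 21.7, 24.8, 34.0 and 26.6 (n = 233), so Shh-/- replicate 1 differed more from the others in members of lower GC. The part of GC content in the difference between genotypes was not tested.

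Of the members, 159 (33.9%) ranked higher in both Shh-/- libraries than in both WT libraries and 47 (10.02%) ranked higher in both WT libraries. Over all regions called in the 4 libraries these shares were 19.3% and 18.8%. The difference between these counts depended on the scale of ranks and on Shh-/- replicate 1. When ranks were taken among all peaks of each list the order of the counts turned, to 19 and 97. Among the members alone the counts were 104 and 101. No share over all regions is given on these scales, so the counts were not read as a result about the members. Without Shh-/- replicate 1 the counts were 178 (38.0%, against 34.3% of all regions) and 147 (31.3%, against 34.4%). The 10 members with the largest difference towards Shh-/- lay 18.6 to 538 kb from the nearest start. Among them were an intergenic member 309 kb from the start of Cbln4 (percentiles 13.8 and 1.07 in WT, 89.9 and 63.8 in Shh-/-), a member in an intron of Slc14a2, an intergenic member 538 kb from the start of Bnc2 (2.81 and 6.71 against 89.1 and 59.0) and a member in an intron of Fgfr2, a receptor of FGFs. The member 48.2 kb upstream of Pkdcc, whose window with the homeodomain core is printed above, was also among the 10 largest differences. Its scores were 309 and 26 in WT and 327 and 348 in Shh-/-, and its percentiles were 24.4 and 3.26 in WT and 89.1 and 51.8 in Shh-/-. This member was named for the size of that difference, so the order of its percentiles is no separate result. The order was given on this scale of ranks only. The members with the largest difference towards WT were over an exon of Sptbn4 (72.3 and 60.3 against 20.3 and 38.0), 11.7 kb from the start of Abt1, 22.9 kb upstream of Ptma, 259 kb upstream of Atp10a and 54.8 kb upstream of Ezh2. At this Ptma member the genotypes overlapped, with percentiles of 60.6 and 84.5 in WT and 20.3 and 62.4 in Shh-/-. The member near Ezh2, which encodes a methyltransferase of the Polycomb complex, had percentiles of 88.8 and 94.5 in WT and 59.8 and 68.1 in Shh-/-.

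**Figure D5:**
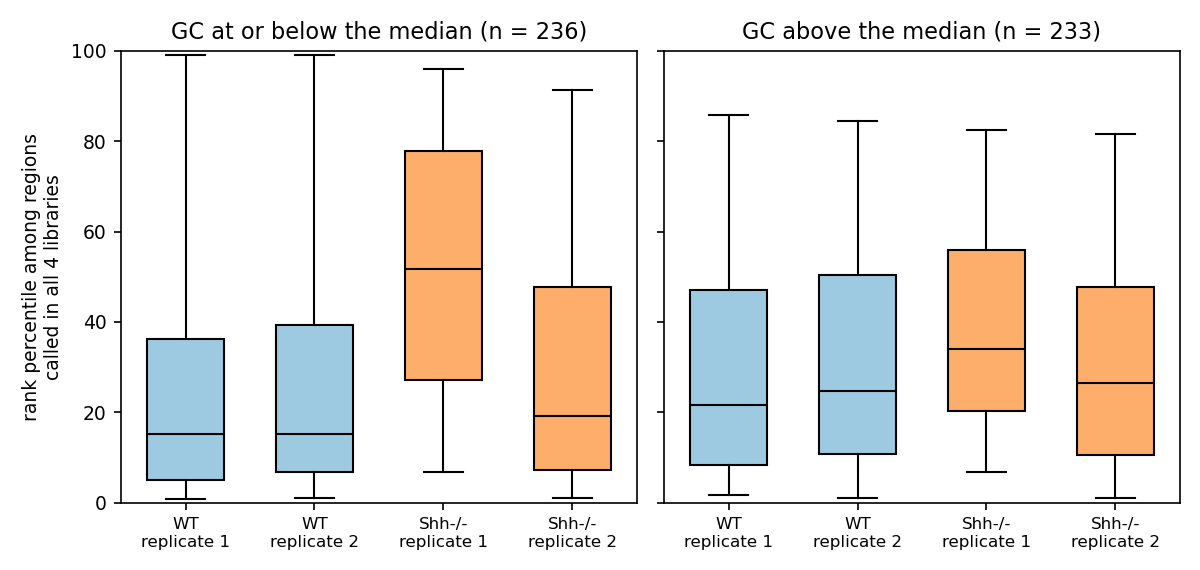
Rank percentile of the members among the regions called in all 4 libraries (y axis) by library, for members at or below the median GC (left, n = 236) and above it (right, n = 233); boxes show quartiles and medians, whiskers the 5th to 95th percentile, blue WT and orange Shh-/-. Shh-/- replicate 1 has the highest median in both panels, 51.7 and 34.0.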

How the data were processed

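ATAC-seq peaks were analysed from 2 WT and 2 Shh-/- posterior forelimb bud libraries, 1 list per library, grouped by genotype and replicate number in the labels. Per the study's methods, MACS2 made the calls with a window of 200 bp, keeping q-values up to 0.05. The submitters' processing notes name Bowtie2 2.2.5, MACS2 2.1.0 and the build mm10 (GRCm38). Read filters and any shift of reads to the Tn5 cut are not given in the sources used here. The score that the authors deposited with each peak is by the format of the caller 10 times the highest −log10 q-value, which the files do not state. It was used only to rank peaks within a list, and the remaining measures (fold enrichment and both kinds of p-value) are 0 throughout. The study's methods give 1 nominal sequencing depth for the ATAC-seq libraries together. A list holds no read counts, so the usable depth of each library is unknown and counts could not be tested. A region not called is therefore not shown to be closed. Where nothing states otherwise the 4 embryos are separate, and the spread between them may still be technical.

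Peaks overlapping by 1 bp or more were merged. Starts, exons and introns were from GENCODE M21 (basic), and starts of the full set and of RefSeq (GRCm38.p6) were used as alternatives. All 75101 peaks lay within the chromosomes of GRCm38. The nearest gene is the protein-coding gene whose start is nearest to the centre of a region. Sequence was read 100 bp to either side of the summit with the best rank in a region. Motifs were matched by letters on both strands, GLI (TGGGTGGTC) with at most 1 mismatch and the others exactly. The others were TTCAGCACC for the repressor REST, CCAATAAA for posterior HOX proteins (HOX13), TAATTA for homeodomain proteins, TAATCC for PITX proteins, AGGTGTGA for T-box proteins, ACAATGG for the SOX family, GTAAACA for the forkhead (FOX) family, AGATAAG for the family of GATA proteins, GGAATG for the TEAD family, CAGATG for TWIST, TGACAG for MEIS, ATCAAAG for LEF proteins, TGANTCA for AP-1, CCGGAAGT for the ETS family, AAGATGGCG for YY1, CCAATCA for the NF-Y (CCAAT) box and a degenerate CTCF core. HOX13 and CCAAT share their first 5 letters, and a match describes letters, not binding. Copies were found with BLAST 2.17.0 against the assembly, in up to 200 alignments per chromosome, and against mitochondrial DNA (80% identity over 100 bp). Likeness between members was added after the best ranked members were seen. Medians have order-statistic 95% intervals and differences of shares Newcombe intervals. Ranks were compared with exact permutation tests over libraries (SciPy 1.17.1). The functions were tested on simulated lists and sequences. The members, gene lists, motifs and named items were chosen with earlier results of these data known. Named were the 20 best members with and without multi-copy ones, the 10 largest rank differences in each direction, the members nearest to and farthest from a start and from the window limits, the 20 genes with most members and listed genes. Some of these are given by counts only. The result of 1 gene list is not reported here. Alternatives were stricter scores, equal lists of 5589 peaks, other promoter and sequence windows, summits within 200 bp, other copy limits, other ranks and leaving out each library.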

Additional observations from a re-analysis of the deposited data

How the results depend on the processing

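The number of members and their makeup moved with the list cutoffs. With a score of at least 50 there were 206 regions, of which 28.2% were intronic, and 27 and 57 ranked higher in both WT and both Shh-/- libraries. With equal lists of 5589 peaks there were 176, with 25.6% intronic, a median GC of 56%, a median distance of 18.3 kb to a start, and 24 and 46 ranked higher in WT and in Shh-/-. A window of 5 kb on either side of a start gave a distance of 36.1 kb and a multi-copy share of 0.548%. Leaving out regions at RefSeq starts, an alternative added after the data were seen, gave 33.0 kb and 24 regions higher in WT. In 400 bp windows CTCF matched in 3.41% and GLI in 10.02%, in whole regions in 5.54% and 25.8%, and without a mismatch GLI matched in 0.426%. Ranked among all peaks of a list, the WT minus Shh-/- difference reversed to 7.23 (exact permutation test, p = 0.667), with 97 regions higher in WT and 19 in Shh-/-. Ranked among members alone, also added later, these counts were 101 and 104. Under these settings no share over all regions is given beside the counts of regions higher in WT or in Shh-/-. With the replicate number as a block the difference was -12.7 (exact sign flips, p = 0.5, the smallest possible with 2 pairs). Same-numbered libraries did not deviate together (correlation over members 0.00822), and the labels do not say whether a number marks a shared litter or day, so the numbers were not taken as pairs. Leaving out 1 library gave 480 to 1200 regions, an intronic share of 32.7 to 39.5%, a GC of 49 to 57.5% and a distance of 19.1 to 49.7 kb. CTCF then matched in 1.0 to 1.88%, GLI in 3.50 to 5.66%, and the multi-copy share was 0.583 to 1.85%. The highest number of regions, the lowest GC and the longest distance were without WT replicate 2, and the highest GC was without Shh-/- replicate 1. The rank comparisons without 1 library kept the 469 members, with a rank difference of -21.7 to -3.61. Of these members, 80 to 147 (17.1 to 31.3%) ranked higher in WT, against 30.2 to 39.5% of all regions called in the 4 libraries. In Shh-/- 178 to 298 (38.0 to 63.5%) ranked higher, against 30.3 to 39.7%. A lone library has no replicate in these counts. The cause of these shifts was not tested. The other settings changed no value by more than its interval, or 1.5 times for a count. With 2 libraries per genotype no rank test could pass 0.05.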

Other observations

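Some members lay near clustered gene families. On chromosome 4, 4 members in introns of the transcripts C230088H06Rik and Platr16 were nearest to Zfp978, Zfp982, Zfp988 and Zfp990, genes of the zinc finger family, and each had a further genomic copy: 169 copies for the member at Zfp988 (chr4:147336732-147337472), 2 copies at Zfp978 and Zfp990, and 1 copy at Zfp982. A member near Zfp984 on the same chromosome (chr4:147813292-147813773) had no further copy. On chromosome 6, 3 members were nearest to Klrb1c, a receptor gene of natural killer cells, and 2 of them had 1 further copy. On chromosome Y all 4 members lay between 90738166 and 90812993, and on chromosome X 3 members lay in introns of Mid1 (between 169982058 and 170005050), a gene at the border of the region that X and Y share. The scores of the widest member of chromosome Y (chrY:90738166-90743482) were 1754 and 84 in WT and 224 and 424 in Shh-/-. What the peaks in these blocks reflect was not tested.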
